A study of Mus musculus with 6 samples.

Results

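The HOX genes are homeobox transcription factor genes that lie in 4 clusters, HoxA to HoxD, and within each cluster are numbered by paralogue group, so that genes with the same number in different clusters are close relatives. All genes whose symbol is Hox, a cluster letter from a to d and a number were taken, which gave 39 of the 24421 genes in the deposited count table. The counts come from ribosomal RNA-depleted RNA of undifferentiated cells of the 3T3-L1 line, which are mouse embryonic fibroblasts used as a model of fat cell precursors, dividing in log phase. The cells were Ube3d knockout (KO, 3 libraries) or wild type (WT, 3 libraries), and the titles name the libraries as biological replicates. Ube3d encodes a ubiquitin ligase. The sources do not give which part of the gene was deleted, or whether the KO cells are 1 clone. An effect of the deletion and a difference between the KO and WT lines themselves cannot be told apart here.

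HOX genes give cells along the body axis and in the limbs their positional identity. Genes of low paralogue number lie at the 3′ end of a cluster and are switched on early and towards the head, and genes of high number are switched on later and towards the tail and the ends of the limbs. Fibroblasts in culture are known to keep a HOX pattern that reflects the body site they came from. Polycomb proteins keep silent HOX genes off, Trithorax proteins keep active ones on, retinoic acid switches on the 3′ genes, and the TALE proteins of the Pbx, Meis and Pknox families bind DNA together with HOX proteins.

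The libraries held 25267434, 27214306 and 28042970 counts in KO cells, against 23767181, 29389480 and 26862276 in WT cells. HOX genes took 3588 to 4173 of these in a KO library and 3731 to 4752 in a WT library. Ube3d, listed under its older symbol Ube2cbp, had 56, 43 and 53 counts in KO cells, against 145, 229 and 173 in WT cells, and was 3.62-fold lower in KO cells (log2 fold change -1.86, SE 0.15, edgeR adjusted p = 7.17e-18). Differences were tested for the 12947 genes with enough counts by edgeR's quasi-likelihood test, and a gene is called where its Benjamini-Hochberg adjusted p over all of these is under 0.05. Calls were common: 61.4% of tested genes were called, 31.2% lower and 30.3% higher in KO cells. All 8 fibroblast markers checked were detected, with summed levels of 7715 to 7858 counts per 1000000 gene counts (CPM) in KO libraries and 10112 to 10254 CPM in WT libraries, and 6 of the 8 were called lower and 1 higher in KO cells. The part of this fibroblast marker difference in the HOX differences was not tested. Epithelial markers summed to at most 0.184 CPM in KO and 0.223 CPM in WT libraries with Epcam and Krt18 at 0, and endothelial markers to 0.464 to 0.551 CPM in KO and 0.337 to 0.819 CPM in WT libraries. Blood markers summed to 6.47 to 7.27 CPM in KO and 4.58 to 6.23 CPM in WT libraries with Adgre1 at 0, and neural markers to 0.214 to 0.257 CPM in KO and 0.0372 to 0.204 CPM in WT libraries with Sox2 and Neurod1 at 0.

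In WT cells the HOX signal came mainly from the HoxA cluster and from a single HoxD gene, Hoxd8. Levels are compared between genes as RPKM, the count divided by the gene length and by the gene total of its library, with the SD over 3 libraries. The 11 HoxA genes summed to 36.4 ± 1.67 RPKM, the 9 HoxD genes to 23.2 ± 0.377, the 10 HoxB genes to 11.5 ± 0.53 and the 9 HoxC genes to 5.05 ± 0.412. HoxA thus held 47.8% ± 0.707 of the summed HOX level, HoxD 30.5% ± 0.533, HoxB 15.1% ± 0.583 and HoxC 6.63% ± 0.553. Of the 39 genes, 29 had at least 1 count in WT cells and 14 had a mean of at least 1 RPKM, 7 of them in HoxA, 3 each in HoxB and HoxD, and 1 in HoxC. Levels were modest: the median of all tested genes was 8.70 RPKM in WT cells, and Hoxd8 and Hoxa3 alone had WT means above it.

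**Figure D1:**
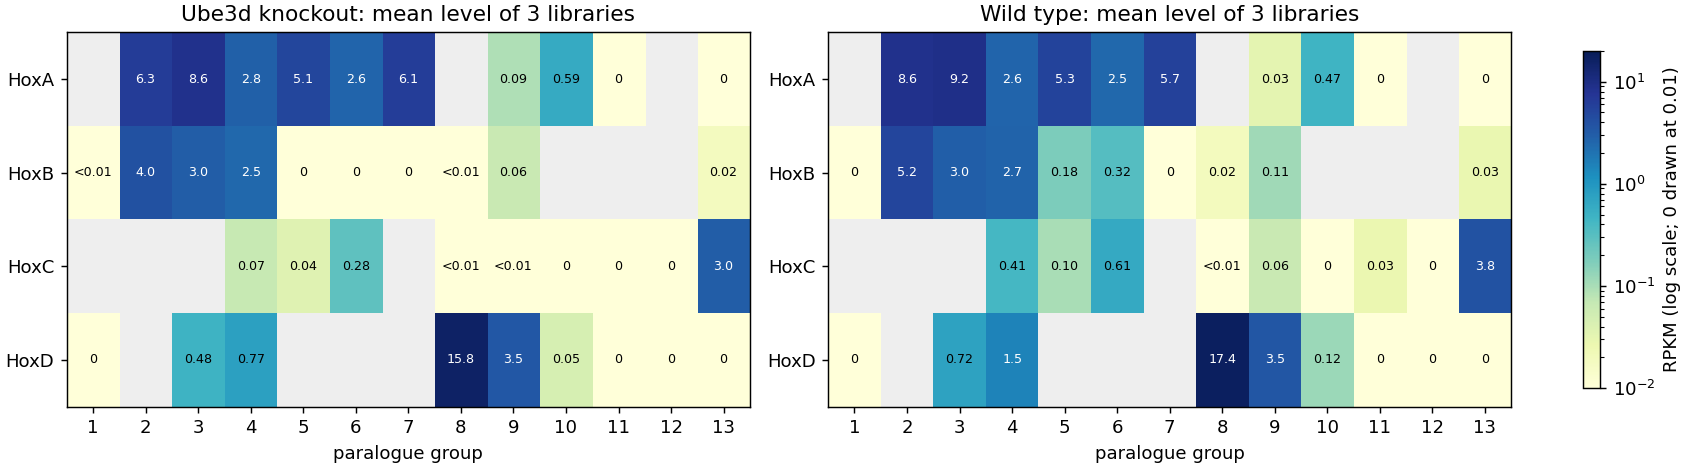
Mean RPKM (log colour scale) of each HOX gene over 3 Ube3d knockout libraries (left) and 3 wild-type libraries (right), with clusters as rows and paralogue groups as columns; grey squares are positions with no gene in the table or not shown here. HoxA is filled from group 2 to group 7, while in HoxC the high level sits at a single gene, Hoxc13. In HoxD it sits at Hoxd8, with Hoxd9 lower but near Hoxc13.

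By paralogue group, WT expression was highest in groups 8, 2 and 3. Group 8 summed to 17.4 ± 0.342 RPKM, almost all of it from Hoxd8, since Hoxb8 and Hoxc8 together had 5 counts over the 3 WT libraries. Groups 2 and 3 followed with 13.8 ± 1.04 and 12.9 ± 0.896 RPKM, shared between HoxA and HoxB members. Groups 4, 5, 6 and 7 had 7.25 ± 0.343, 5.57 ± 0.540, 3.398 ± 0.430 and 5.66 ± 0.191 RPKM. Beyond group 8 the level dropped to 3.73 ± 0.433 RPKM in group 9, nearly all Hoxd9, and to 0.587 ± 0.232 in group 10, mostly Hoxa10. Groups 11 and 12 were silent at this depth, with 2 counts of Hoxc11 in 1 WT library and no other count. Group 13 stood apart from its neighbours with 3.86 ± 0.367 RPKM, nearly all Hoxc13.

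The single genes fell into steps. Hoxd8 had 17.4, 17.0 and 17.7 RPKM in the 3 WT libraries, above every other HOX gene in each of them. Hoxa3 at 9.17 ± 0.797 and Hoxa2 at 8.65 ± 0.799 RPKM came next, and their libraries overlapped. Hoxa7, Hoxa5 and Hoxb2 followed at 5.66, 5.29 and 5.16 RPKM, where the libraries of Hoxa5 overlapped those of both others, while Hoxa7 lay above Hoxb2 in all 3 libraries. Below them lay a run of genes with overlapping neighbours, among them Hoxc13, Hoxd9, Hoxb3, Hoxb4, Hoxa4, Hoxa6 and Hoxd4, from 3.83 to 1.503 RPKM. Hoxd3, Hoxc6, Hoxa10, Hoxc4 and Hoxb6 lay between 0.723 and 0.325 RPKM, and every other gene was at or under 0.180 RPKM, led by Hoxb5. Of the 28 pairs of neighbours in this order, 5 had WT libraries that did not overlap, namely those below Hoxd8, Hoxa2, Hoxb2, Hoxd4 and Hoxb6.

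Of the 39 genes, 9 had no count in any of the 6 libraries. These were Hoxa11, Hoxa13, Hoxb7, Hoxc10, Hoxc12, Hoxd1, Hoxd11, Hoxd12 and Hoxd13, so that apart from Hoxb7 and Hoxd1 they belong to groups 10 to 13. A further 11 had too few counts to be tested, at most 12 in a library. Hoxc13, a gene known for its role in hair and nail formation, was the only gene of groups 11 to 13 with more than 2 counts in a library. Its neighbours Hoxc12 and Hoxc10 had no count, and Hoxc11 had 0 counts in KO cells and 2 in WT cells.

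Where HOX genes differed between the genotypes, they were lower in KO cells. Of the 19 tested genes, 9 were called lower and 0 higher (7 lower and 1 higher when tested against the median of their own chromosome), that is 47.4% lower against 31.2% of all tested genes, and 0 higher against 30.3%. In either direction together, 47.4% of the tested HOX genes were called, below the 61.4% of all tested genes. The fold change was below 1 for 14 of the 19 genes and above 1 for 5, with a median log2 fold change of -0.14, against 0.0041 over all tested genes. In 10 of the 19 genes every KO library was below every WT library, which held for 31.0% of all tested genes. Both counts include Hoxb6, Hoxc4 and Hoxc6, which passed the count filter only through their WT libraries, where they were higher. With a filter of 1 CPM in 3 libraries they were not tested, and 6 HOX genes were called lower. With this many genes called in the cells as a whole, the total of called HOX genes does not set them apart. Whether their lean towards lower calls does was not tested, since no test of the list was made. Since RNA was pooled from whole cultures, fewer cells that express a gene and less of its RNA per cell cannot be told apart.

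The genes called lower lay in all 4 clusters, with 1 of 8 tested in HoxA, 2 of 4 in HoxB, 3 of 3 in HoxC and 3 of 4 in HoxD. By paralogue group they were 3 of the 6 tested genes of groups 1 to 3, 5 of the 10 of groups 4 to 8 and 1 of the 3 of groups 9 to 13. Hoxb6, Hoxc4 and Hoxc6, which passed the count filter only through their WT libraries, are in the counts of HoxB, HoxC and groups 4 to 8. Those counts therefore carry little weight. Of all tested genes 31.2% were called lower, with 278 of 642 on chromosome 6, 269 of 1070 on chromosome 11, 168 of 510 on chromosome 15 and 598 of 1024 on chromosome 2. Whether clusters or paralogue groups differed from each other in their response was not tested. The median log2 fold change of all tested genes was -0.10 on chromosome 6, which holds HoxA, 0.04 on chromosome 11 (HoxB), -0.02 on chromosome 15 (HoxC) and -0.24 on chromosome 2 (HoxD). Their fold changes ran from 1.10-fold lower for Hoxd8 to 5.83-fold lower for Hoxc4, which had at most 32 counts in a library, and Hoxb6, with no count in KO cells, has a bound only. A gene with few counts can be called only where its change is large, so these sizes are not compared across levels.

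**Figure D2:**
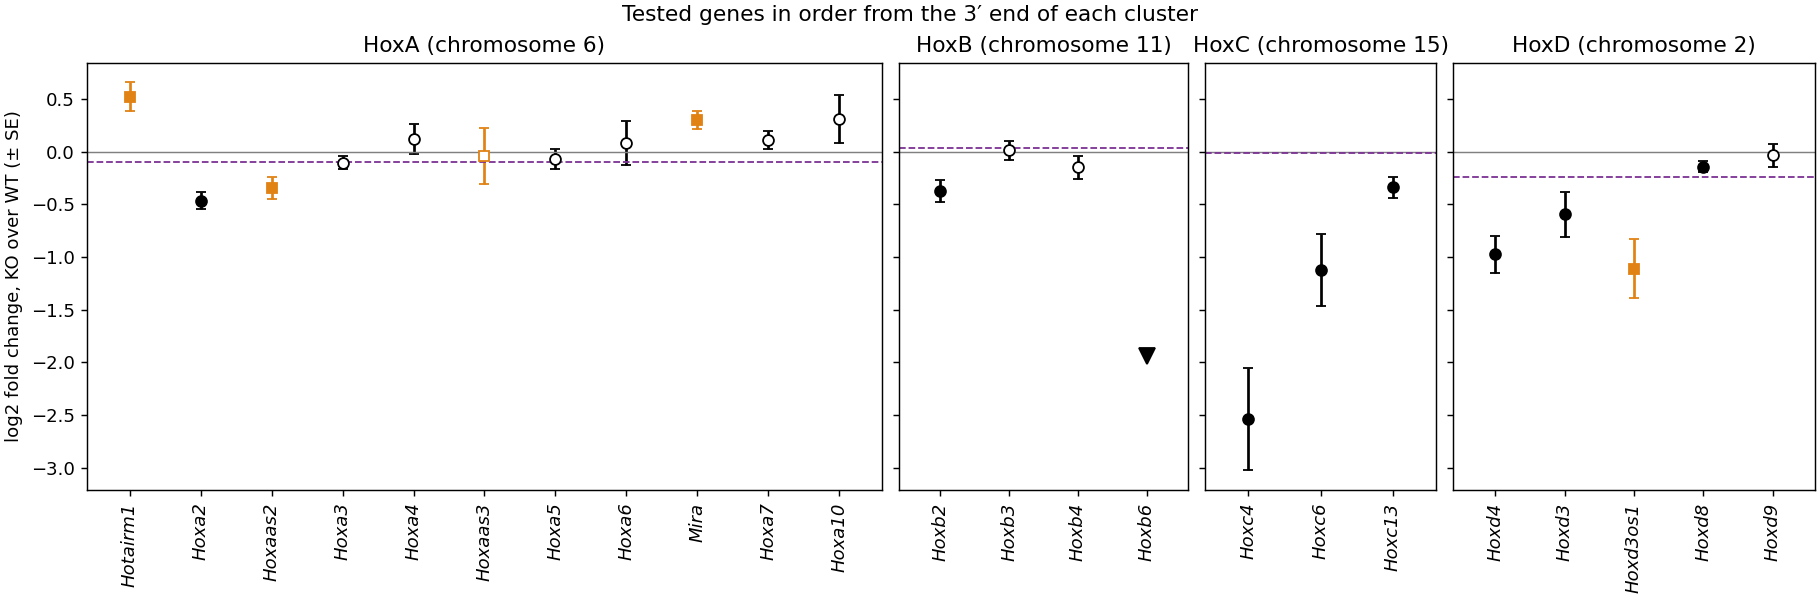
Log2 fold change (KO over WT) ± SE of the tested HOX genes shown (circles) and tested noncoding gene of the clusters (squares), ordered along each cluster; filled symbols have an adjusted p under 0.05, dashed lines are the median of the cluster's chromosome, and the triangle for Hoxb6 marks the upper limit from a floor of 3 counts. The filled circles all lie below 0, and in HoxA the HOX genes from Hoxa3 to Hoxa7 lie close to 0.

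In the HoxB cluster, at chromosome 11, 96194361 to 96368253 (GRCm38), a pair of neighbouring genes was not detected in KO cells. Hoxb6, expressed in trunk and limb mesoderm of the embryo, had 0, 0 and 0 counts in KO libraries, against 12, 11 and 11 in WT libraries. Taking 3 counts in each library as the floor, it was at least 3.84-fold lower in KO cells (edgeR adjusted p = 3.96e-07). Hoxb5, its 3′ neighbour, had 0, 0 and 0 counts in KO libraries, against 11, 11 and 5 in WT libraries, and was at least 3.05-fold lower by the same floor. It did not pass the count filter, and without that filter it was called lower in KO cells with edgeR (adjusted p = 8.4e-06). The groups do not overlap for either gene, but the WT levels were low, 0.430 ± 0.0676 CPM for Hoxb6 and 0.341 ± 0.141 CPM for Hoxb5, and floors cover counting error only.

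Of the other 3 tested HoxB genes, 1 was called. Hoxb2, which acts in hindbrain patterning, had 6.09, 6.10 and 7.38 CPM in KO libraries, against 7.91, 8.68 and 8.64 CPM in WT libraries, and was 1.30-fold lower in KO cells (log2 fold change -0.37, SE 0.11, edgeR adjusted p = 0.00164). Every KO library lay below every WT library. Hoxb4, a gene known from blood stem cells, averaged 6.34 ± 0.0961 CPM in KO and 6.996 ± 0.841 CPM in WT cells, with all KO libraries lower, and was not called (95% interval of the log2 fold change -0.37 to 0.07). Hoxb3 averaged 11.3 ± 0.487 CPM in KO and 11.1 ± 1.65 CPM in WT cells, with an interval of -0.16 to 0.19. Among the untested genes, Hoxb9 had 2, 7 and 5 counts in KO and 10, 7 and 7 in WT libraries, with overlap. Hoxb8 had 1 count in KO and 4 in WT cells, a ratio of 0.248 with an interval from 0.00504 to 2.51, Hoxb13 had 2 counts in KO and 3 in WT cells, and Hoxb1 had 1 in KO and 0 in WT cells.

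In the HoxC cluster, at chromosome 15, 102921131 to 103036852, all 3 tested genes were called lower. Hoxc4 and Hoxc6 passed the count filter only through their WT libraries, so the share of tested HoxC genes called lower carries little weight. Hoxc4, the gene at its 3′ end, had 0, 4 and 7 counts in KO libraries, against 15, 18 and 32 in WT libraries. It was 5.83-fold lower in KO cells (log2 fold change -2.54, SE 0.48, edgeR adjusted p = 5.84e-06). With a library left out, the log2 fold change ran from -3.35 without KO replicate 3 to -2.01 without KO replicate 1. Hoxc6, which acts in thoracic patterning, had 7, 18 and 11 counts in KO libraries, against 25, 33 and 20 in WT libraries, and was 2.18-fold lower (log2 fold change -1.13, SE 0.34, edgeR adjusted p = 0.00313). For both genes each KO library was below each WT library in CPM. Hoxc5, which lies between them and was not tested, had 2, 4 and 2 counts in KO libraries, against 7, 9 and 6 in WT libraries, again without overlap. Hoxc13, at the 5′ end, had 7.44, 7.24 and 7.52 CPM in KO libraries, against 9.80, 8.30 and 9.87 CPM in WT libraries, a 1.26-fold lower level in KO cells (log2 fold change -0.34, SE 0.10, edgeR adjusted p = 0.00278). Between these ends the counts were too few to compare: Hoxc9 had 0, 1 and 0 counts in KO and 7, 1 and 0 in WT libraries, and Hoxc8 1 count in each genotype.

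**Figure D3:**
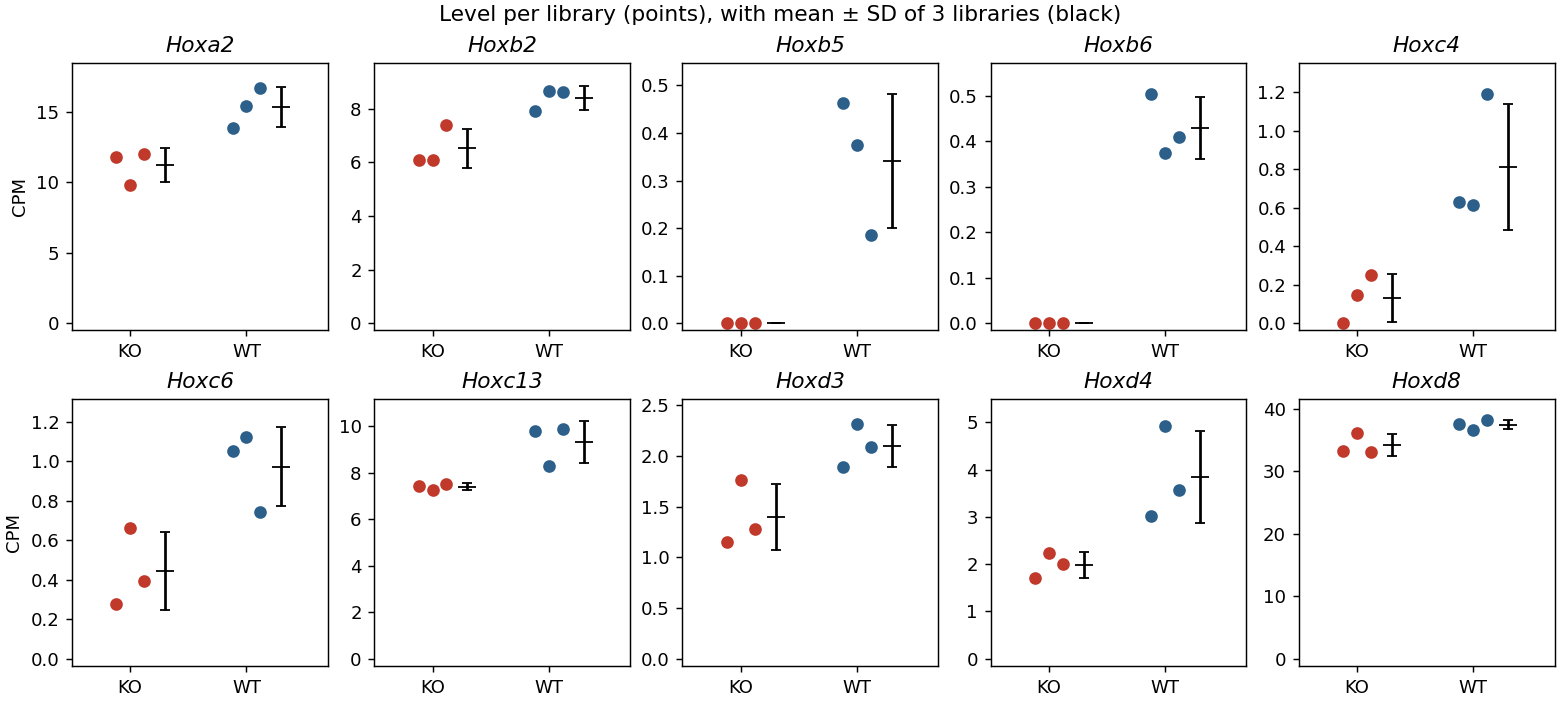
Level in CPM of the 9 HOX genes called lower and of Hoxb5 in each Ube3d knockout (left) and wild-type (right) library, with the mean and SD of 3 libraries in black. No panel has a KO point above a WT point, and Hoxb5 and Hoxb6 are at 0 in all KO libraries.

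In the HoxD cluster, at chromosome 2, 74668310 to 74765142, the lower genes have to be read against their chromosome, since 58.4% of the 1024 tested genes of chromosome 2 were called lower. Hoxd4 had 1.702, 2.24 and 2.00 CPM in KO libraries, against 3.03, 4.93 and 3.57 CPM in WT libraries, with no overlap. It was 1.97-fold lower in KO cells (log2 fold change -0.98, SE 0.18, edgeR adjusted p = 2.48e-06), or -0.74 against the median of its chromosome. Hoxd3, whose gene model spans Hoxd4, had 1.15, 1.76 and 1.28 CPM in KO libraries, against 1.89, 2.31 and 2.08 CPM in WT libraries. It was 1.51-fold lower (log2 fold change -0.60, SE 0.22, edgeR adjusted p = 0.0138). That call was lost without KO replicate 1, KO replicate 3 or WT replicate 2 (edgeR adjusted p = 0.0797, 0.0555 and 0.0573), in DESeq2 (adjusted p = 0.0506), and when tested against the median of chromosome 2 (log2 fold change -0.36, edgeR adjusted p = 0.153).

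Hoxd8, the HOX gene with the highest level, had 33.2, 36.2 and 33.1 CPM in KO libraries, against 37.6, 36.7 and 38.2 CPM in WT libraries. The groups do not overlap, and the gene was 1.10-fold lower in KO cells (log2 fold change -0.14, SE 0.05, edgeR adjusted p = 0.017), but tested against the median of chromosome 2 its sign turns, to 0.10, and it is not called (edgeR adjusted p = 0.102). The call was lost without KO replicate 1, KO replicate 3 or WT replicate 3 (edgeR adjusted p = 0.0754, 0.079 and 0.0518). Hoxd9, next to it, averaged 7.25 ± 0.314 CPM in KO and 7.40 ± 0.698 CPM in WT cells and was not called (interval of the log2 fold change -0.24 to 0.17). Hoxd10, which was not tested, had 2, 0 and 5 counts in KO and 2, 8 and 8 in WT libraries.

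In the HoxA cluster, on chromosome 6, 1 of 8 tested genes was called. Hoxa2, which sets the identity of the second pharyngeal arch, had 11.8, 9.81 and 12.02 CPM in KO libraries, against 13.9, 15.4 and 16.7 CPM in WT libraries, with no overlap. It was 1.38-fold lower in KO cells (log2 fold change -0.46, SE 0.084, edgeR adjusted p = 1.93e-06), with means of 11.2 ± 1.22 CPM in KO and 15.3 ± 1.42 CPM in WT cells.

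The remaining tested HoxA genes were not called, and the libraries of the genotypes overlapped for each. Hoxa3, a gene of thymus and parathyroid development, averaged 21.8 ± 1.34 CPM in KO and 23.3 ± 2.03 CPM in WT cells (interval of the log2 fold change -0.23 to 0.02). Hoxa5, a regulator of lung and thoracic development, averaged 9.57 ± 0.529 CPM in KO and 9.93 ± 1.13 CPM in WT cells (interval -0.25 to 0.11). Hoxa7 averaged 11.99 ± 1.32 CPM in KO and 11.05 ± 0.373 CPM in WT cells (interval -0.06 to 0.28). Tested against the median of chromosome 6, Hoxa7 was called higher in KO cells (log2 fold change 0.21, edgeR adjusted p = 0.038). Hoxa4 and Hoxa6 had wider ones, -0.16 to 0.40 and -0.32 to 0.49. Hoxa10, known for its part in uterine and limb development, had 1.94, 1.84 and 1.75 CPM in KO libraries, against 1.14, 1.12 and 2.16 CPM in WT libraries. WT replicate 3 was thus the highest of the 6 libraries and the other 2 WT libraries the lowest. With all libraries Hoxa10 was not called (interval -0.14 to 0.76), and without WT replicate 3 it was called higher in KO cells (log2 fold change 0.69, edgeR adjusted p = 0.0196). Hoxa9, which was not tested, had 6, 6 and 12 counts in KO libraries, against 3, 1 and 4 in WT libraries, and was the only HOX gene with every KO library above every WT library.

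Paralogue group 4 is the one group with a tested member in each of the 4 clusters. Hoxc4 and Hoxd4 were called lower, Hoxb4 and Hoxa4 were not, and the differences between these fold changes were not tested. To show the starts of genes of the same group that gave different calls, the 250 bases before the RefSeq start of Hoxb4, Hoxc4 and Hoxd4 (GRCm38.p6) are printed 5′ to 3′ on the plus strand, with CG pairs in capitals. They lie at chr11:96318017-96318266, chr15:103034145-103034394 and chr2:74721728-74721977, and the last is inside a Hoxd3 intron.
Hoxb4: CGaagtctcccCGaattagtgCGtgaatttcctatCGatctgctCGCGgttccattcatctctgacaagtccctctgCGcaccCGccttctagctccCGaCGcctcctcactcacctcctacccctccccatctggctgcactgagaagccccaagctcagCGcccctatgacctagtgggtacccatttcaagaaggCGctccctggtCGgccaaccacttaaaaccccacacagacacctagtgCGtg
Hoxc4: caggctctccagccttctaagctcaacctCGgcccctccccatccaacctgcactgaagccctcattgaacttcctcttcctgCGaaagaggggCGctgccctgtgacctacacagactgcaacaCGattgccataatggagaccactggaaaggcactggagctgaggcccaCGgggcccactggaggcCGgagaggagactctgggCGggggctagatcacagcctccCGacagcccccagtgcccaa
Hoxd4: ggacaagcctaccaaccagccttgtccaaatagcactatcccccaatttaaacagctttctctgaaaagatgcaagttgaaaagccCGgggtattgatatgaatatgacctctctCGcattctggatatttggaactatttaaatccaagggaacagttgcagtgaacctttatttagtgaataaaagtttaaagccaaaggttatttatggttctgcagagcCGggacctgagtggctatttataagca
The Hoxb4 window holds 14 CG pairs, the Hoxc4 window 8 and the Hoxd4 window 3, with a GC content of 58%, 62% and 40.4%. Of the 32851 such windows in the table, 70.6%, 57.0% and 29.0% have fewer CG pairs than Hoxb4, Hoxc4 and Hoxd4 do. TATAAA, searched on both strands, occurs once in the Hoxd4 window and in neither of the others, and CCAAT likewise, whereas 12.4% and 33.8% of all windows hold these motifs. The homeodomain motif TAATTA and the Pbx-Hox motif TGATNNAT occur in none of the 3 windows, and in 4.84% and 7.68% of all windows. These matches describe the printed letters only.

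Summed by cluster, the level in KO cells was lower in each cluster, and the order of the clusters was the same in both genotypes. HoxC summed to 3.26, 3.56 and 3.49 RPKM in KO libraries, against 5.29, 4.57 and 5.29 RPKM in WT libraries, a ratio of the means of 0.681, and its groups do not overlap. HoxB summed to 9.60 ± 0.458 RPKM in KO and 11.5 ± 0.530 RPKM in WT cells, a ratio of 0.833. HoxD summed to 20.6 ± 0.938 RPKM in KO and 23.2 ± 0.377 RPKM in WT cells, a ratio of 0.886. HoxA summed to 34.2 ± 1.96 RPKM in KO and 36.4 ± 1.67 RPKM in WT cells, a ratio of 0.939, with overlapping libraries. Over all 39 genes the sum was 67.8 ± 1.71 RPKM in KO and 76.2 ± 2.39 RPKM in WT cells, and 13 genes in KO and 14 in WT cells averaged at least 1 RPKM, the difference being Hoxd4 at 0.774 RPKM in KO and 1.503 RPKM in WT cells. As log2, the cluster ratios were -0.17 for HoxD and -0.09 for HoxA, beside medians of -0.24 and -0.10 over the tested genes of their chromosomes. For HoxB and HoxC the log2 ratios were -0.26 and -0.56, beside medians of 0.04 and -0.02. A sum follows its genes of highest level, in HoxD mainly Hoxd8, so it is not the same measure as a median over genes. By gene, the median log2 fold change was 0.0066 over the 8 tested HoxA genes and -0.37 over the 4 tested HoxD genes. These sums are descriptions, with no test.

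**Figure D4:**
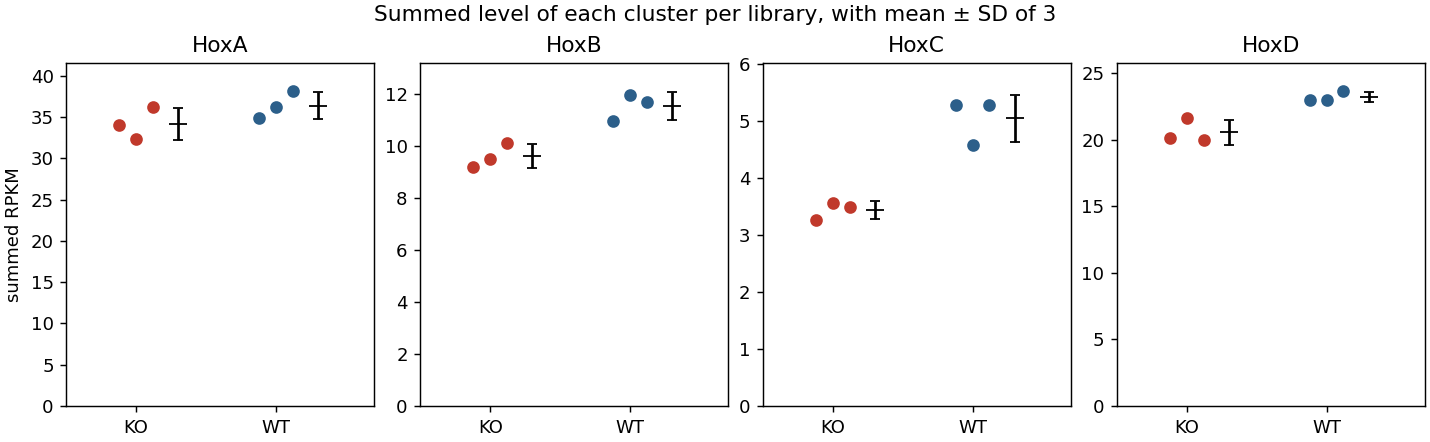
Summed RPKM of all genes of each HOX cluster in each Ube3d knockout (left) and wild-type (right) library, with the mean and SD of 3 libraries; each panel has its own axis from 0. KO and WT points are apart in HoxB, HoxC and HoxD and overlap in HoxA.

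The noncoding genes of the clusters moved in both directions. Of 20 listed, 5 were tested, 2 were called higher and 2 lower in KO cells, beside 30.3% and 31.2% of all tested genes. Hotairm1, which lies beside the 3′ end of Hoxa2 on the opposite strand, had 5.54, 5.402 and 5.35 CPM in KO libraries, against 3.58, 4.42 and 3.202 CPM in WT libraries. It was 1.44-fold higher in KO cells (log2 fold change 0.52, SE 0.13, edgeR adjusted p = 0.000544), with no overlap, while Hoxa2 beside it was lower. Mira, between Hoxa6 and Hoxa7, averaged 12.4 ± 1.02 CPM in KO and 10.0 ± 0.961 CPM in WT cells and was 1.23-fold higher in KO cells (edgeR adjusted p = 0.00259), a call lost without KO replicate 3 (edgeR adjusted p = 0.051). Hoxaas2, antisense to the Hoxa3 end, averaged 7.01 ± 0.869 CPM in KO and 8.87 ± 0.764 CPM in WT cells and was 1.27-fold lower in KO cells (edgeR adjusted p = 0.00293). Its exons share 390 bases with Hoxa3 on the other strand, and the strand setting of the counting is unknown here, so the values of the pair are uncertain. Hoxd3os1, antisense at the start of Hoxd3, averaged 0.689 ± 0.195 CPM in KO and 1.48 ± 0.250 CPM in WT cells and was 2.16-fold lower in KO cells (log2 fold change -1.11, SE 0.28, edgeR adjusted p = 0.000394).

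In HoxB, 2 untested noncoding genes were low in the same libraries as Hoxb5 and Hoxb6. Hoxb5os, whose gene model spans Hoxb5 and Hoxb6 on the other strand, had 0, 0 and 0 counts in KO libraries, against 5, 4 and 4 in WT libraries. Gm53, which lies between Hoxb13 and Hoxb9, had 0, 1 and 0 counts in KO libraries, against 10, 7 and 5 in WT libraries, a ratio of 0.0452 with a 95% interval from 0.00109 to 0.279. Without the count filter both were called lower in KO cells with edgeR (adjusted p = 0.00309 for Hoxb5os and 0.000565 for Gm53). Hotair, a HoxC noncoding RNA, had 2, 4 and 3 counts in KO and 8, 5 and 6 in WT libraries. Mir10a, listed between Hoxb4 and Hoxb5, had 2, 3 and 4 counts in KO and 1, 0 and 1 in WT libraries, and such counts on a short hairpin row do not measure the mature miRNA.

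The tested genes flanking the clusters were compared as neighbours that share the chromosome but are no HOX genes. For each cluster the nearest tested gene on either side is given, from 60.7 kb away (Mtx2) to 399 kb away (Snx11). Genes that were not tested were passed over. Beside HoxB, Atp5g1 averaged 48.2 ± 3.45 CPM in KO and 46.1 ± 1.95 CPM in WT cells, Snx11 averaged 15.8 ± 0.716 CPM in KO and 16.8 ± 0.607 CPM in WT cells, and neither was called. Beside HoxC, Smug1 was not called, and Calcoco1 was called higher in KO cells (log2 fold change 0.13, edgeR adjusted p = 0.0395), a call lost without any 1 of 5 libraries, KO replicates 1 and 3 and WT replicates 1, 2 and 3 (edgeR adjusted p = 0.0533 to 0.249), without the count filter (0.0761) and in DESeq2 (0.0928). Beside HoxD both were called lower in KO cells with edgeR, Lnp with a log2 fold change of -0.23 and Mtx2 with -0.52, and beside HoxA both were called lower, Skap2 with -0.21 and Hibadh with -0.27. Tested against the median of their chromosome, Lnp had a log2 fold change of 0.0075 (edgeR adjusted p = 0.896) and Skap2 of -0.11 (0.0508), and neither was called. Over the 18 tested flanking genes, 5 were called higher (27.8%, against 30.3% of all tested genes) and 8 lower (44.4%, against 31.2%), and 5 lower when tested against the median of the own chromosome. The 4 of these with the smallest adjusted p are all near HoxD on chromosome 2. Atp5g3 and Mtx2 were lower in KO cells (log2 fold changes -0.42 and -0.52), and Hnrnpa3 and Chn1 were higher (0.56 and 1.59).

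Among the TALE cofactors, which form complexes with HOX proteins on DNA, 3 of 9 were called higher (33.3%, against 30.3% of all tested genes) and 4 lower (44.4%, against 31.2%) in KO cells, with a median log2 fold change of -0.08 against 0.0041 over all tested genes. Meis2 had 71.8, 69.9 and 73.2 CPM in KO libraries, against 106, 107 and 115 CPM in WT libraries, and was 1.54-fold lower in KO cells (log2 fold change -0.62, edgeR adjusted p = 1.2e-23). It lies on chromosome 2, like HoxD, and its log2 fold change against the median of that chromosome was -0.38. The KO and WT libraries of Meis2 are far apart compared with their spread. Pknox2 averaged 2.73 ± 0.215 CPM in KO and 4.49 ± 0.754 CPM in WT cells and Pknox1 24.7 ± 1.58 CPM in KO and 28.3 ± 0.842 CPM in WT cells, both called lower. The number called higher was 1 without WT replicate 2, when Pbx2 and Pbx4 were no longer called.

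Of the 30 tested genes of the Polycomb complexes, which keep HOX clusters silent, 8 were called higher (26.7%, against 30.3% of all tested genes) and 4 lower (13.3%, against 31.2%) in KO cells, and the median log2 fold change was 0.02. Phc3, of the Polycomb repressive complex that holds Ring1 proteins, averaged 112 ± 0.665 CPM in KO and 75.0 ± 0.394 CPM in WT cells (log2 fold change 0.57), and Pcgf3 and Phc2 were also higher (0.37 and 0.25). Rbbp7, a histone-binding subunit, was lower (log2 fold change -0.21). Against the median of their own chromosome the log2 fold changes were 0.27 for Phc3, 0.17 for Pcgf3, 0.24 for Phc2 and -0.12 for Rbbp7. Of the 15 Trithorax genes and demethylases of the Polycomb mark, 5 were called higher (33.3%, against 30.3%) and 4 lower (26.7%, against 31.2%). Kmt2a, the methyltransferase known for keeping HOX genes active, averaged 216 ± 8.71 CPM in KO and 168 ± 6.85 CPM in WT cells (log2 fold change 0.35), and Kmt2c and Kmt2d were higher too (0.54 and 0.22). Against the median of the own chromosome, Kmt2a had 0.33, Kmt2c 0.35 and Kmt2d 0.23. Kdm6a, an X-linked demethylase, averaged 39.1 ± 0.998 CPM in KO and 59.3 ± 2.26 CPM in WT cells (log2 fold change -0.61). Each gene named here had KO libraries that did not overlap the WT libraries.

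In the retinoic acid pathway 6 of 13 tested genes were called higher (46.2%, against 30.3% of all tested genes) and 3 lower (23.1%, against 31.2%) in KO cells, with a median log2 fold change of 0.21. Rdh10, the retinol dehydrogenase that starts retinoic acid synthesis, averaged 13.8 ± 0.973 CPM in KO and 21.3 ± 2.09 CPM in WT cells (log2 fold change -0.64). The receptor gene Rarg averaged 121 ± 4.61 CPM in KO and 104 ± 2.45 CPM in WT cells and was called higher (log2 fold change 0.21). Among other transcription factors of position and limb, 29 of 59 were tested, 9 were called higher (31.0%, against 30.3% of all tested genes) and 13 lower (44.8%, against 31.2%), with a median log2 fold change of -0.07. Tbx18 averaged 19.6 ± 1.31 CPM in KO and 36.6 ± 0.984 CPM in WT cells (log2 fold change -0.91), whereas Tbx3 averaged 44.3 ± 1.42 CPM in KO and 25.8 ± 0.245 CPM in WT cells (0.77). Prrx2, a gene of limb mesenchyme, was also called higher (0.42). These lists had calls in both directions, while the HOX genes had lower calls only, except in alternative tests. There, Hoxa7 was called higher against the median of chromosome 6, and Hoxa10 without WT replicate 3. Whether the lists differ from the HOX genes was not tested.

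**Figure D5:**
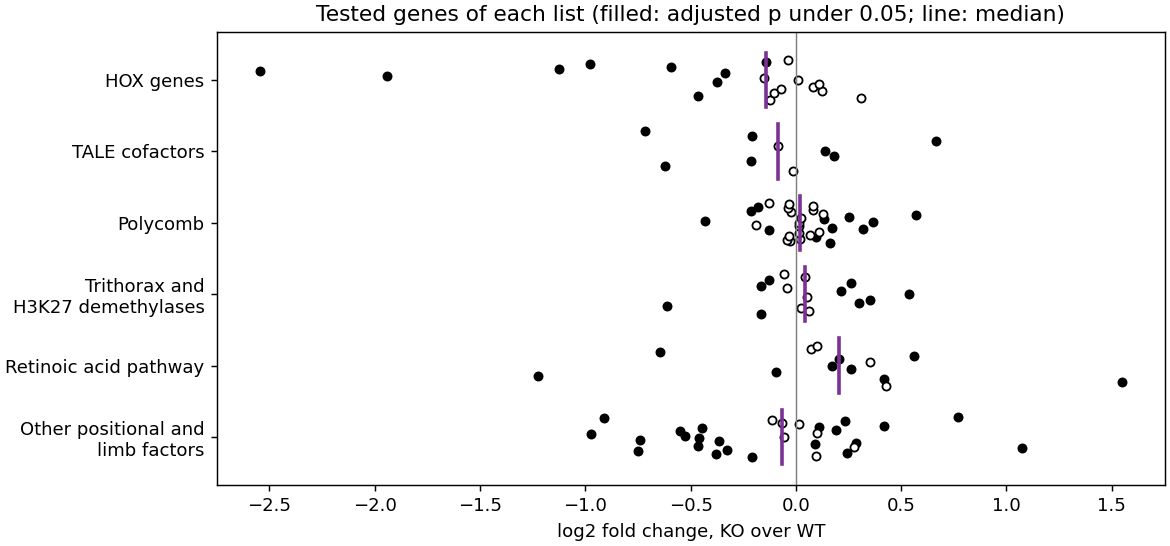
Log2 fold change (KO over WT) of every tested gene of the HOX group and of 5 related lists; filled points have an adjusted p under 0.05, purple bars are medians, and Hoxb6 is drawn at its bound. All filled HOX points lie left of 0, while each of the other lists has filled points on both sides.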

How the data were processed

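Per the labels' protocols, the 6 libraries are stranded and depleted of ribosomal RNA. Counts per gene were deposited as raw whole numbers, with exon positions, strand and length. The submitters' processing notes name STAR 2.6.1d, featureCounts 1.6.3 and the mm10 or GRCm38 genome. The strand setting and the treatment of reads with several alignments are not given by these sources, so reads shared by close paralogues may be lost or split. A second deposited table, of regions with no name or position, was not used.

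The test was edgeR 4.0.16 under R 4.3.3 (quasi-likelihood F test, robust, TMM scaling, filterByExpr with min.count 10 and min.total.count 15), two-sided, with Benjamini-Hochberg adjustment over 12947 genes and calls under 0.05. The SE is on the log2 scale. CPM and RPKM were computed from the deposited counts, the total gene count and the deposited gene length. Of 24421 genes, 6449 had no count. A ratio with few counts has an exact 95% binomial interval, which covers counting error only. How separate the cultures were is not stated, so p-values measure only the spread between these libraries, which may be technical. Alternatives were DESeq2 1.42.0, limma-voom 3.58.1, other scalings and count filters, a replicate block, a test against the median of the own chromosome (an offset on the KO libraries), shifted chromosomes left out, and each library left out. The fit was tested on simulated counts.

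The HOX members, the lists and the alternatives were chosen with earlier results of these data known. Every HOX gene was to be described, with up to 4 genes per other list by smallest adjusted p, the genes next to each cluster and Ube3d; the untested noncoding genes, Pbx2 and Pbx4 were named after their values were seen. Some genes that this rule names are not reported here. Promoter windows were RefSeq's (GRCm38.p6), found for 22 of the 39 members. Python 3.11.15, pandas 2.3.3, NumPy 2.4.6, SciPy 1.17.1 and matplotlib 3.10.9 made tables and plots.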

Additional observations from a re-analysis of the deposited data

How the results depend on the processing

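The calls of Hoxa2, Hoxb2, Hoxb6, Hoxc4, Hoxc6, Hoxc13 and Hoxd4 were kept in every alternative in which the gene was tested, but Hoxb6, Hoxc4 and Hoxc6 are not tested with a filter of 1 CPM in 3 libraries. The number of HOX genes called lower was 10 without a count filter, 6 with the 1 CPM filter, 8 in DESeq2 and 6 without genes of chromosomes 2 (which holds HoxD), 3, 5 and 12, and 8 to 10 with a library left out, when 0 to 1 were called higher. Tested against the median of the own chromosome, 7 HOX genes were lower and 1 higher (Hoxa7), the calls of Hoxd3 and Hoxd8 were lost, and the log2 fold change of Hoxd8 reversed to 0.10; 5 flanking genes were lower. Without chromosomes 2, 3, 5 and 12, fewer genes are in the lists: 2 TALE genes were lower, 5 Polycomb, 3 Trithorax and 5 other positional genes were higher, 1 noncoding gene was lower, and 3 flanking genes were higher and 5 lower. Without the count filter 4 noncoding genes were lower. In DESeq2 3 flanking genes were higher. With a library left out, 1 to 3 TALE genes, 1 to 2 noncoding genes and 3 to 5 flanking genes were higher. With the replicate number as a block, 9 HOX genes were lower and 0 higher, and of the genes named in the text Calcoco1 was no longer called (edgeR adjusted p = 0.0503). The numbers do not pair the samples: same-number deviations from the group means correlated at -0.0291, -0.0328 and -0.0318 across genes, and no sample correlated best with its own number. Genes that did not reach about 10 counts in at least 3 libraries could not be tested at this depth. A gene near 0 in KO cells, such as Hoxb6, was tested where its WT libraries passed.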
